A study of Mus musculus with 2 samples.

Results

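The genes described here are 10 mouse genes that mark monocytes or take part in their migration, their surface or their lysosomal and innate functions: Ccr2, Cx3cr1, Ly6c2, F13a1, Fn1, Ms4a6c, Ms4a4c, Ctss, Ly86 and Mpeg1. They were found by symbol among the 32285 genes of the deposited matrices, and each symbol matched 1 gene. The study asked how loss of Phf6, a gene for a chromatin-associated protein mutated in leukaemia, acts together with a RUNX1 mutation. Mouse bone marrow cells were transduced with a vector carrying the RUNX1-S291fs mutation and GFP, sorted for GFP and transplanted, and GFP-positive lineage-negative cells were sorted from recipient bone marrow 8 weeks later for single-cell RNA sequencing. There were 2 groups with 1 library each: Phf6 knockout donor cells (KO) and wild-type donor cells (WT). Both groups carried the RUNX1-S291fs vector, so neither was free of the mutation. The sources used here do not give the Phf6 allele, the age and sex of the mice, the number of recipients behind a library, or the antibodies of the lineage sort, which can remove mature monocytes and set the shares of cells given here.

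Monocytes arise in bone marrow from granulocyte-monocyte and monocyte-committed progenitors under the transcription factors PU.1, Irf8 and Klf4. Classical monocytes, which carry Ly6C on their surface, need the chemokine receptor Ccr2 to leave the marrow, and a fraction converts into non-classical monocytes that lose Ly6C and gain Cx3cr1, the receptor for fractalkine. Several of the other genes serve functions of the same cells: Fn1 and F13a1 encode the matrix protein fibronectin and the coagulation factor XIII A subunit, Ctss a lysosomal protease, Ly86 the secreted partner of the receptor Cd180, Mpeg1 a pore-forming protein of phagosomes, and Ms4a6c and Ms4a4c membrane proteins with several membrane-spanning segments.

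The positions are from GENCODE M21 on GRCm38, the build named in the submitters' processing notes. Ccr2 (chr9:124101950-124113557, plus strand) lies beside Ccr3 in a cluster of chemokine receptor genes, and Cx3cr1 (chr9:119901616-120069879, minus strand) is on the same chromosome. Ly6c2 (chr15:75108158-75111970, minus strand) has Ly6c1 and Ly6g as its nearest protein-coding neighbours. Reads of Ly6c2 and its close relative Ly6c1 could be split in counting, but Ly6c1 had 40 UMIs in KO cells and 25 in WT cells, against 26882 UMIs of Ly6c2 in KO and 29691 in WT. F13a1 (chr13:36867178-37050244, minus strand) and Ly86 (chr13:37345208-37419036, plus strand) were adjacent protein-coding genes 294963 bases apart. On chromosome 19, Ms4a4c (chr19:11404770-11427246, plus strand) and Ms4a6c (chr19:11469366-11482192, plus strand) were separated by 42119 bases that hold Ms4a4b, and Mpeg1 (chr19:12460779-12465283, plus strand) was 978586 bases beyond Ms4a6c. Fn1 is at chr1:71585520-71653200 on the minus strand and Ctss at chr3:95526786-95556403 on the plus strand.

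RefSeq promoter windows (GRCm38.p6) were found for 9 of the 10 genes, and the 250 bases before the RefSeq start were searched on both strands for 4 motifs. They were GAGGAA, a core of the kind PU.1 binds; an interferon-stimulated response element (GAAA, any 2 bases, GAAA); an ETS-IRF composite element (GGAA, any 2 bases, GAAA); and TTGCNNAA, paired C/EBP half-sites. GAGGAA was present in a window of 4 of the 9 genes (Ctss, F13a1, Ly6c2 and Ms4a4c), and in 23.3% of all 32851 promoter windows of this length. The interferon-stimulated response element was found in Ctss alone among the 9 genes and in 2.98% of all windows. The other 2 motifs, present in 2.30% and 9.56% of all windows, had no match in the members' windows, which says only that these letters are not in those bases. No motif matches overlapped in the 3 windows below. The windows of Ms4a4c (chr19:11407411-11407660), Ms4a6c (chr19:11469118-11469367) and Ctss (chr3:95526536-95526785) are printed 5′ to 3′ on the plus strand, because the 2 neighbouring MS4A genes differed in direction between the libraries and Ctss held both motifs. Capitals mark the matches, which begin 61 bases before the start in Ms4a4c, and 164 (GAGGAA) and 21 bases (interferon-stimulated response element) before it in Ctss; the Ms4a4c window lies inside the longer GENCODE gene.
Ms4a4c: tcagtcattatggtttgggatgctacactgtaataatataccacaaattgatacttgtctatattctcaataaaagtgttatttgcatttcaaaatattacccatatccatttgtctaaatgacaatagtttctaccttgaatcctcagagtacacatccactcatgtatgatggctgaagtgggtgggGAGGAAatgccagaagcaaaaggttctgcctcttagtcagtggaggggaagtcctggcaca
Ms4a6c: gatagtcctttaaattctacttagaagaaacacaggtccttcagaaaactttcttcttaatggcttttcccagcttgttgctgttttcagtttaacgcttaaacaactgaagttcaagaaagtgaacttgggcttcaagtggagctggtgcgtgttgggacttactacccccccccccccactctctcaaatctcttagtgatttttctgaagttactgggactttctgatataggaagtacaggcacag
Ctss: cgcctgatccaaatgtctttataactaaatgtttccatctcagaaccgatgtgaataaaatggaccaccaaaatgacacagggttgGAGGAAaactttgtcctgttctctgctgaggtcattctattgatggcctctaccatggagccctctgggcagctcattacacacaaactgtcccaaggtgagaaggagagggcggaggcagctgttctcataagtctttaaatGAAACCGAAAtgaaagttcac

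The libraries held 5260 (KO) and 5287 (WT) cell barcodes with 120408100 UMIs in KO and 131667969 in WT, and 10 barcode sequences occurred in both. After filters on genes and mitochondrial UMIs and removal of likely doublets, 4709 KO and 4478 WT cells were kept, with medians of 21421 UMIs per KO cell and 24813.5 per WT cell. Phf6 itself was at 20.6 CPM (a gene's UMIs pooled over cells and scaled to the same total UMIs in each group of cells) in KO cells and 41.8 CPM in WT cells, a log2 ratio of -1.02 (95% interval -1.09 to -0.95). Phf6 RNA was thus lower but present in the library labelled KO, and because the deleted part is not given here, 3′ counts outside it would not check the deletion. With 1 library per group there is no replicate and no test of KO against WT: all intervals cover counting error only, and cells of a library are not replicates. A gene was counted as called where its mean level was 10 CPM or more and the libraries differed at least 1.5-fold. Levels are 3′ UMI counts and were not compared between genes.

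Cells were clustered together with the 10 genes left out of both the clustering genes and the markers that name clusters, so that their levels did not define the groups in which they are described. Clusters 6, 10 and 11 met the rule for monocyte-like cells, and held 757 KO cells (16.1% of KO cells, exact binomial interval 15.04 to 17.16) and 630 WT cells (14.1%, 13.1 to 15.1). The leading genes of cluster 10 were cell cycle histone genes and Klf4, those of cluster 6 were Trem2, Mrc1 and Cd209a, and those of cluster 11 were Klra2, Lgals3, S100a4 and Chil3 beside the interferon-responsive genes Cxcl10 and Ifi204. Markers of committed monocytes were highest in cluster 11 among the 3, with a median of 9.18 on the log2 CPM scale against 6.62 for markers of monocyte progenitors, and progenitor markers were higher than committed ones in cluster 10 (8.43 against 7.67). Cluster 4 (408 KO and 272 WT cells) was led by genes such as Irf8, Tifab and Mpo and had the highest progenitor-marker median of the 4 (9.16, against 4.79 for committed markers), but did not meet the rule and stays unnamed. The progenitor markers are not particular to monocytes. Their median was higher still in clusters 2 (9.19), 7 (9.35), 9 (9.92) and 15 (9.26). In cluster 4, neutrophil progenitor markers summed to 16659 CPM in KO and 15679 CPM in WT. Monocyte markers there summed to 1664 CPM in KO and 1751 CPM in WT. Cluster 17 (85 KO and 66 WT cells) was led by C1qb, C1qa, Adgre4, Fcgr4 and Pparg, had low UMI medians (7739 in KO and 6081 in WT cells) and also stays unnamed.

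In both libraries all 10 genes were highest in monocyte-like cells among the 7 named classes with at least 50 cells in each library. The plasma cell-like class, which held WT cells only, was outside this comparison. Its Ctss level was above that of WT monocyte-like cells. Among single clusters with at least 50 cells, unnamed cluster 17 was highest for Cx3cr1, Ctss and Mpeg1 in both libraries. Of the UMIs of all 10 genes together, 65.0% in the KO library and 66.7% in the WT library came from monocyte-like cells; with cluster 4 counted in, a choice made after seeing the data, these shares were 85.4% in KO and 83.7% in WT. Fn1 was the most concentrated, with 94.9% of its UMIs in KO and 95.1% in WT in monocyte-like cells. Cx3cr1 was the least, at 33.3% in KO and 45.5% in WT. Cells were thinned to 5000 UMIs each for detection, which left out 4 KO and 5 WT monocyte-like cells. After thinning, a monocyte-like cell had UMIs of a median of 7 of the 10 genes in either library, 91.8% of KO and 90.7% of WT monocyte-like cells had 5 or more, and the erythroid-like cells (medians of 61268 UMIs in KO and 71878 in WT before thinning) had none of the 10 in 79.7% of KO and 91.5% of WT cells.

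**Figure D1:**
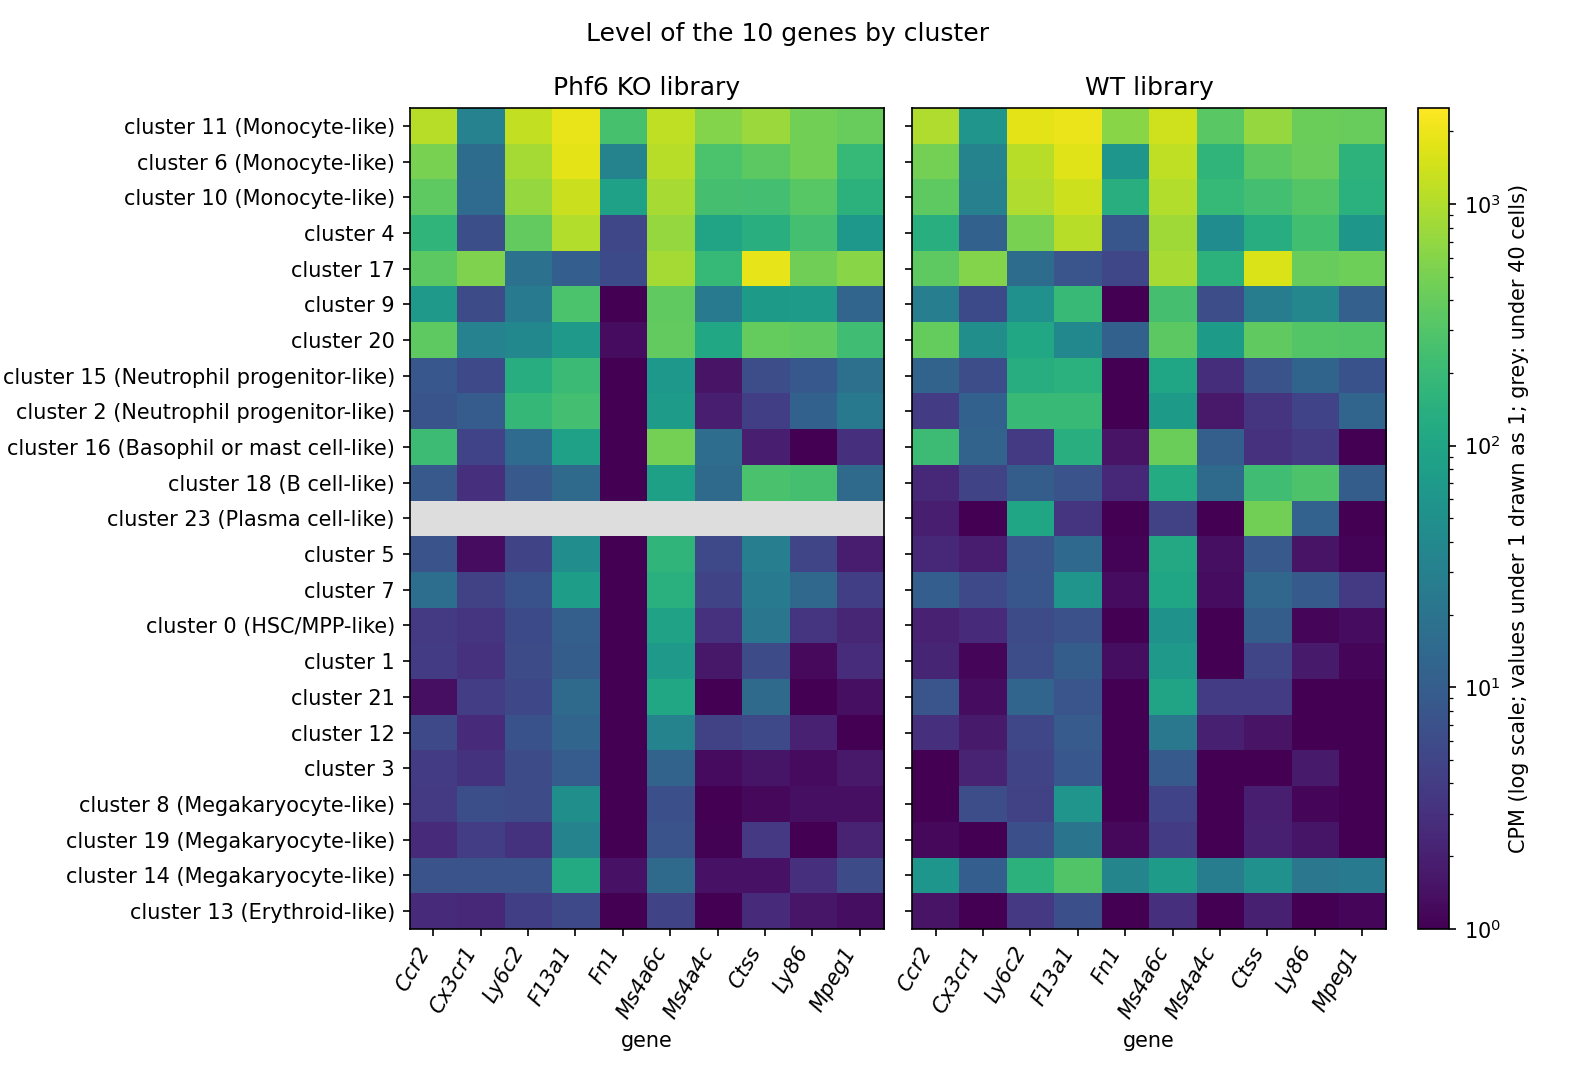
Level of each gene (columns) in each cluster (rows), in CPM on a log colour scale, in the KO library (left) and the WT library (right); grey marks a cluster with no or too few cells. The top rows, clusters 11, 6, 10 and 4, are high in most of the genes in both libraries, cluster 17 is high in Cx3cr1 (547 CPM in KO, 592 CPM in WT) but low in Ly6c2, F13a1 and Fn1, and the WT row of cluster 14 stands out from its KO row.

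Across clusters 4, 10, 6 and 11, all 10 genes were higher in cluster 11 than in cluster 4 in both libraries. The steepest was Fn1, at 5.33 CPM in cluster 4 and 259 CPM in cluster 11 of the KO library, and 8.07 and 631 CPM in the WT library, which are differences of 48.7-fold in KO and 78.2-fold in WT. Fn1 was not even along the way: cluster 10 had 87.8 CPM in KO and 135 CPM in WT, above cluster 6 with 32.7 CPM in KO and 60.6 CPM in WT. Ccr2, Ms4a4c, Ctss, Mpeg1 and Cx3cr1 were 4.99-fold to 6.56-fold higher in cluster 11 than in cluster 4 in KO cells and 5.24-fold to 7.66-fold higher in WT cells. The smallest differences between these clusters were those of Ms4a6c (1.62-fold in KO, 1.73-fold in WT), F13a1 (1.88-fold in KO, 1.87-fold in WT) and Ly86 (1.94-fold in KO, 1.80-fold in WT). Ly6c2 was between (3.15-fold in KO, 3.46-fold in WT). The order of clusters is by their marker levels, not by a measured time.

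**Figure D2:**
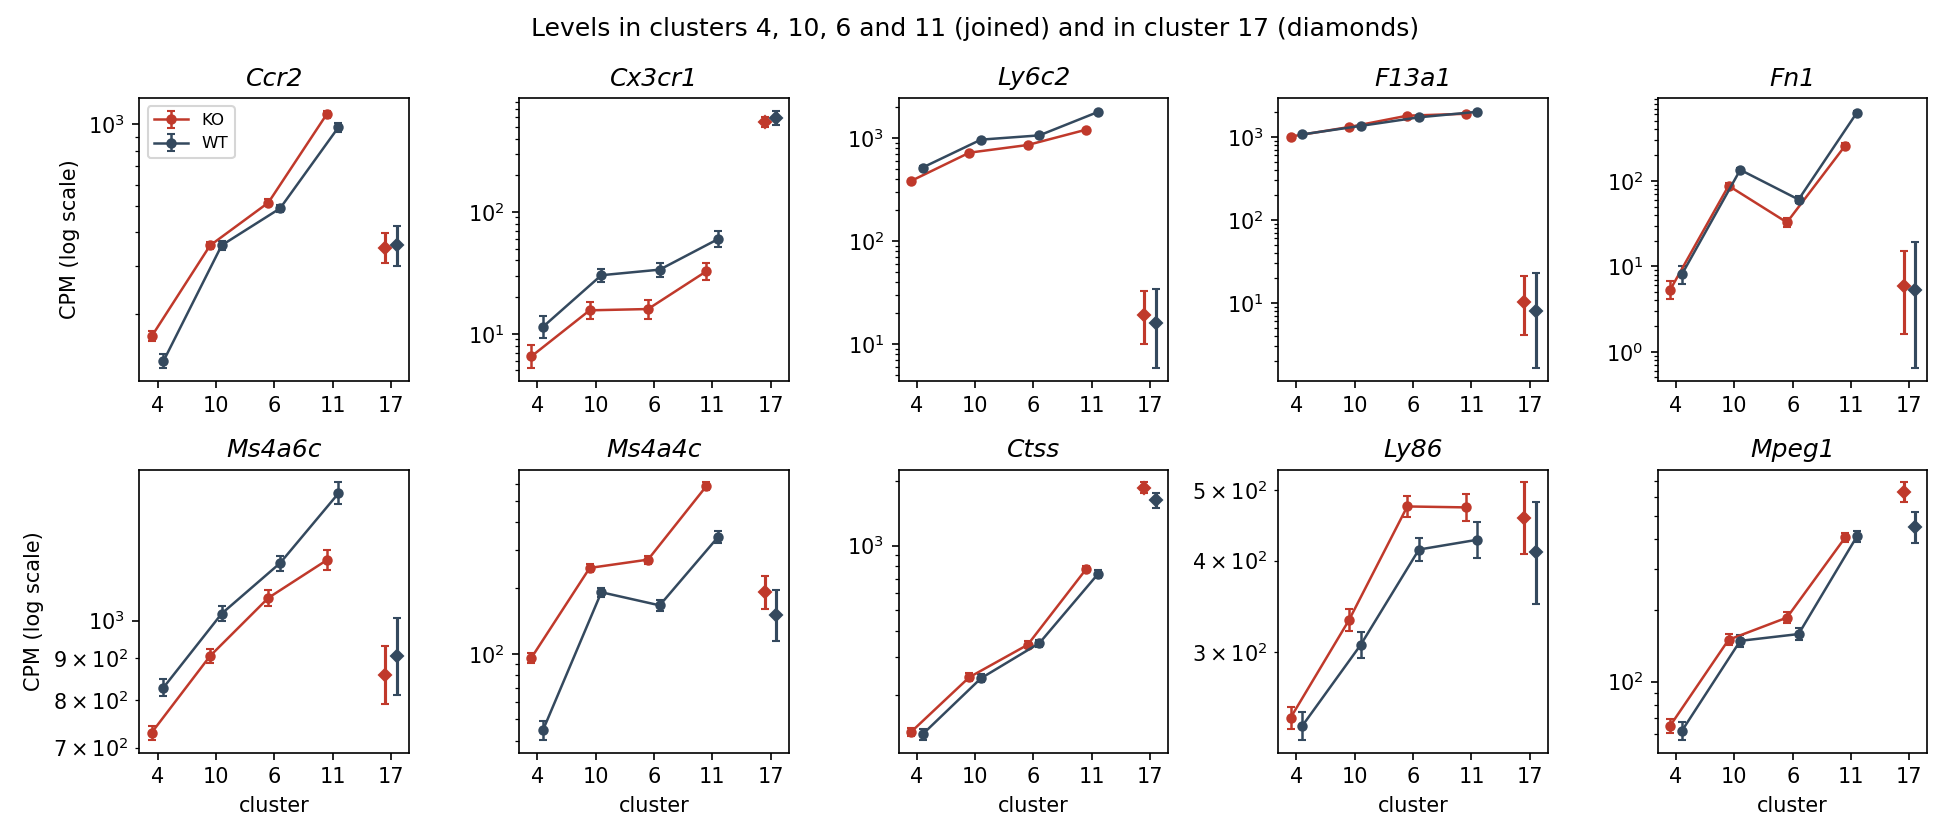
Level of each gene in CPM (log axis, exact Poisson 95% intervals) in clusters 4, 10, 6 and 11, joined by lines, and in cluster 17 (diamonds), for KO (red) and WT (dark) cells. Lines of the libraries run apart for Cx3cr1, Ly6c2, Fn1 and Ms4a6c (KO lower) and Ms4a4c (KO higher), and lie close for Ctss and F13a1.

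Ccr2, the receptor for Ccl2 and Ccl7 that monocytes use to leave the marrow, was at 558 CPM in KO and 508 CPM in WT monocyte-like cells. The log2 ratio was 0.14 (0.10 to 0.18), and within clusters it was 0.31 in cluster 4 (166 CPM in KO, 134 CPM in WT), -0.003 in cluster 10, 0.07 in cluster 6 and 0.16 in cluster 11 (1089 CPM in KO, 974 CPM in WT). Ccr2 was therefore close in level in the libraries once monocyte-like cells were compared with one another. Outside the monocyte clusters its highest levels were in cluster 20, cluster 17 and the basophil or mast cell-like cells. Cluster 20, led by genes of several cell types such as Gzma and Siglech and with under 50 KO cells, had 359 CPM in KO and 400 CPM in WT, and cluster 17 had 351 CPM in KO and 358 CPM in WT. Basophil or mast cell-like cells had 215 CPM in KO and 213 CPM in WT, with Ccr2 UMIs in 49.3% of KO and 53.5% of WT thinned cells, against 1.56% of KO and 0.529% of WT erythroid-like cells. The intervals of the log2 ratio included 0 in all 3 of these groups.

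Cx3cr1 was lower in KO than in WT monocyte-like cells, at 19.1 CPM (17.29 to 20.995) in KO and 36.2 CPM (33.5 to 39.1) in WT. The log2 ratio was -0.92 (-1.11 to -0.75) over the monocyte-like cells, and -0.96, -1.07 and -0.88 in clusters 10, 6 and 11. In cluster 4 it was -0.81, from 87 KO and 99 WT UMIs and a mean level under the minimum of 10 CPM. Each of these intervals was below 0. The levels in monocyte-like cells were low beside those of cluster 17. There Cx3cr1 was at 547 CPM in KO (493 to 606) and 592 CPM in WT (517 to 675), a log2 ratio of -0.11 (-0.36 to 0.13). Cluster 17 is the place in these libraries where Cx3cr1 was high and Ly6c2 low (19.03 CPM in KO and 15.9 CPM in WT). Those Ly6c2 values rest on 13 KO and 6 WT UMIs. The macrophage markers of cluster 17 summed to 3772 CPM in KO and 1757 CPM in WT with Cd163 at 0 in both. Its dendritic cell markers summed to 17273 CPM in KO and 12142 CPM in WT with Siglech, Cd209d and Xcr1 at 0. Its monocyte markers, all 12 detected, summed to 8888 CPM in KO and 8634 CPM in WT. In cluster 11 the monocyte markers summed to 8072 CPM in KO and 8938 CPM in WT. The part of each of these kinds of cells in the Cx3cr1 and Ly6c2 values was not tested. Neutrophil progenitor-like cells had 8.70 CPM of Cx3cr1 in KO and 10.1 CPM in WT, and the cells that were neither monocyte-like nor in clusters 4 or 17 had 5.06 CPM in KO and 5.07 CPM in WT.

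Ly6c2, which encodes the Ly6C antigen of classical monocytes, was at 870 CPM in KO and 1139 CPM in WT monocyte-like cells, a log2 ratio of -0.39 (-0.42 to -0.36). It was lower in the KO library in each of the 4 clusters, by log2 ratios of -0.43 in cluster 4, -0.42 in cluster 10, -0.31 in cluster 6 and -0.57 in cluster 11 (1212 CPM in KO, 1799 CPM in WT). The difference was below the 1.5-fold size used for calls in each. Neutrophil progenitor-like cells were the next named class, at 169 CPM in KO and 182 CPM in WT, with Ly6c2 UMIs in 38.7% of KO and 41.5% of WT thinned cells, against 3.13% of KO and 3.17% of WT erythroid-like cells. Ly6c2 was also at 101 CPM in the plasma cell-like cluster, which held 53 WT cells and no KO cell.

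F13a1 was the gene of the set that differed least between the libraries within monocyte-like cells: 1609 CPM in KO and 1609 CPM in WT, a log2 ratio of 0.00 (-0.02 to 0.02). Its levels were also high in cluster 4 (1013 CPM in KO, 1075 CPM in WT). F13a1 is known as a platelet and megakaryocyte protein too. Here megakaryocyte-like cells had 51.2 CPM in KO and 66.1 CPM in WT, below the other named classes given next. Neutrophil progenitor-like cells had 234 CPM in KO and 184 CPM in WT, a log2 ratio of 0.35 (0.28 to 0.42). Basophil or mast cell-like cells had 87.9 CPM in KO and 136 CPM in WT, but this ratio of -0.63 changed sign when doublets were kept (0.41) and when classes were set by marker score per cell (0.04).

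Fn1 was lower in the KO library by the largest amount of the 10 in committed monocytes. In cluster 11 it was at 259 CPM in KO (244 to 275) and 631 CPM in WT (602 to 661), a log2 ratio of -1.28 (-1.39 to -1.18), and over all monocyte-like cells it was at 102 CPM in KO and 183 CPM in WT (-0.84, -0.92 to -0.77). Clusters 10 and 6 had log2 ratios of -0.62 and -0.89. The share of cells with Fn1 UMIs was also lower in KO: 44.5% of 200 KO cells of cluster 11 had an Fn1 UMI after thinning (37.5 to 51.7) and 66.2% of 145 WT cells (57.9 to 73.8), and without thinning the shares were 56.9% in KO and 78.8% in WT. Fn1 RNA was unevenly spread in both libraries, with 45.1% of the UMIs of KO monocyte-like cells in the top 38 of 757 cells and 38.1% of those of WT monocyte-like cells in the top 32 of 630. Marker levels of cluster 11 differed between the libraries as well. Its committed monocyte markers summed to 6774.5 CPM in KO and 7862 CPM in WT, its monocyte progenitor markers to 2197 CPM in KO and 1446 CPM in WT, and its neutrophil progenitor markers to 3138 CPM in KO and 2158 CPM in WT, with every marker of the 3 lists detected in both. Their part in the Fn1 and Ly6c2 values was not tested. Outside the monocyte-like cells and clusters 4 and 17 Fn1 was at 0.605 CPM in KO and 1.09 CPM in WT.

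**Figure D3:**
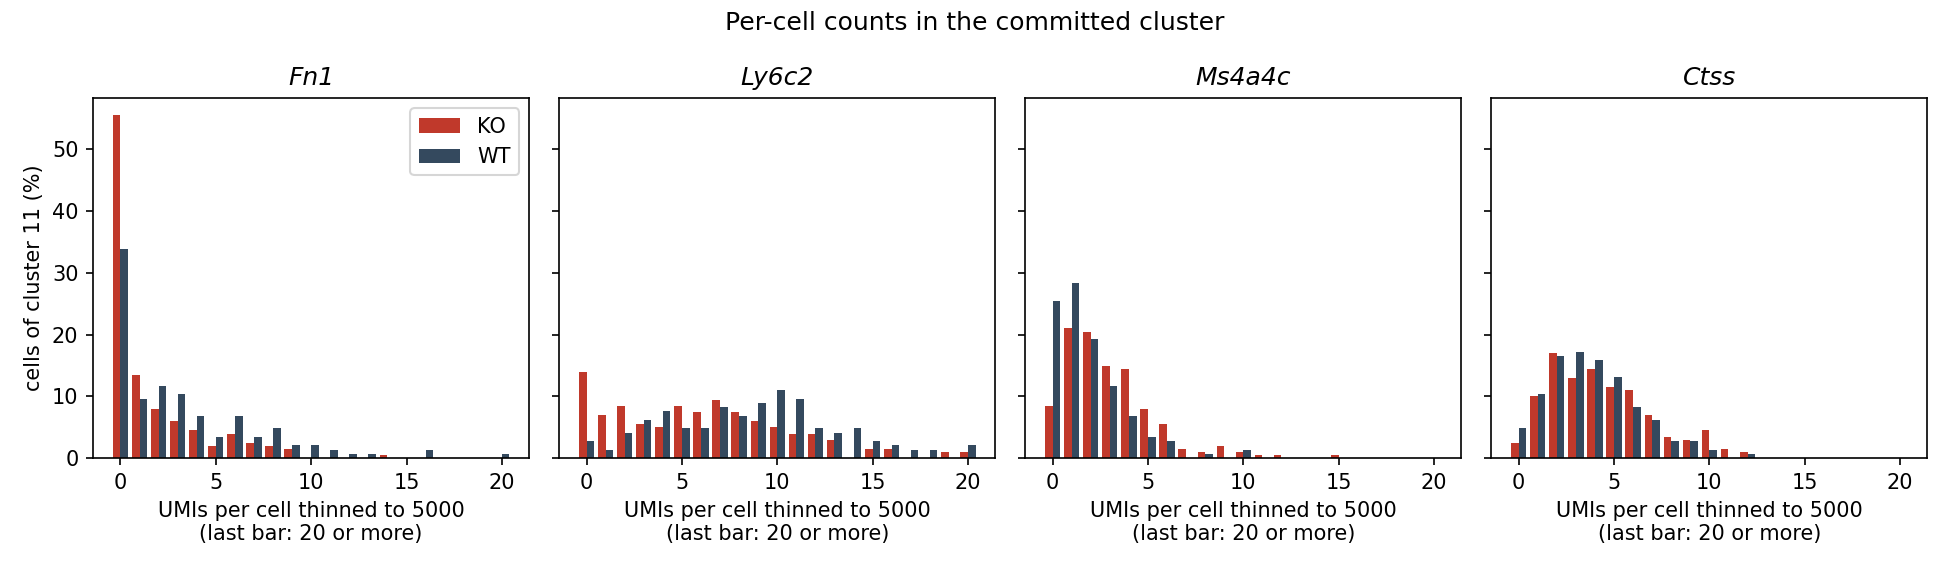
Share of the cells of cluster 11 (y axis, percent) with each number of UMIs of Fn1, Ly6c2, Ms4a4c and Ctss after thinning to 5000 UMIs per cell (x axis), for 200 KO (red) and 145 WT (dark) cells. Cells with no Fn1 UMI were 55.5% of KO and 33.8% of WT cells, cells with no Ms4a4c UMI were 8.50% of KO and 25.5% of WT cells, and the Ctss bars of the libraries largely coincide.

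The per-cell counts of cluster 11 differ in shape as well as in mean. Ly6c2 had a median of 6 UMIs per thinned KO cell and 9 per WT cell, and 14% of KO cells had none, against 2.76% of WT cells. The middle of the cells lay between 2 and 9 UMIs in KO (quartiles) and between 5 and 11 in WT. For Ctss both libraries had a median of 4 UMIs, with quartiles of 2 and 6 in KO and 2 and 5 in WT.

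The 2 MS4A genes differed between the libraries in opposite directions. Ms4a4c was at 323 CPM in KO and 205 CPM in WT monocyte-like cells, a log2 ratio of 0.65 (0.59 to 0.71), and was the only member at least 1.5-fold higher there, where 1.29% of all 8067 genes tested were called higher and 0.707% lower. Its log2 ratio was 1.10 in cluster 4 (95.8 CPM in KO, 44.7 CPM in WT), 0.37 in cluster 10, 0.70 in cluster 6 and 0.78 in cluster 11 (587 CPM in KO, 343 CPM in WT), with every interval above 0. Ms4a6c, one gene away, was at 1018 CPM in KO and 1146 CPM in WT monocyte-like cells, a log2 ratio of -0.17 (-0.20 to -0.14), and it was lower in KO in each of clusters 4, 6, 10 and 11. Ms4a6c was also found outside the monocyte clusters. It had UMIs in 84.5% of KO and 80.2% of WT basophil or mast cell-like cells after thinning, where it was at 491 CPM in KO and 428 CPM in WT. The shares were 31.1% of KO and 23.5% of WT HSC/MPP-like cells, at 90.1 CPM in KO and 56.4 CPM in WT, against 4.69% of KO and 1.59% of WT erythroid-like cells. Ms4a4c in HSC/MPP-like cells was 29 UMIs in KO and 1 in WT, too few to describe a level.

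Interferon-response genes were higher in KO alongside Ms4a4c, and their part in the Ms4a4c value was not tested. Of the 16 genes of that list measured in monocyte-like cells, 12 were at least 1.5-fold higher in KO and 0 lower, with a median log2 ratio of 0.81 against 0.01 for all 8067 genes tested. Of all 8067 genes, 1.29% were called higher and 0.707% lower. Iigp1 was at 23.5 CPM in KO and 0.882 CPM in WT, Usp18 at 22.1 CPM in KO and 6.01 CPM in WT, and Isg15 at 50.3 CPM in KO and 15.3 CPM in WT. At the finer clustering, 28 KO and 2 WT monocyte-like cells fell in a cluster led by Cxcl10 and Ifit3. Without these cells, a choice made after seeing the data, Ms4a4c had a log2 ratio of 0.60 and Fn1 of -0.83, each within the interval of the full set. The interferon list was not recomputed without them, so whether its difference remained was not tested. With all cells kept, its median log2 ratio was 0.44 in cluster 6, 0.56 in cluster 10 and 1.10 in cluster 11.

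Ctss, the cathepsin active at neutral pH, was at 384 CPM in KO and 361 CPM in WT monocyte-like cells, a log2 ratio of 0.09 (0.04 to 0.14). Its highest level was in cluster 17, at 1871 CPM in KO and 1629 CPM in WT, where all thinned cells of both libraries had a Ctss UMI. Ctss was high in lymphoid cells too, with 261 CPM in KO and 225 CPM in WT B cell-like cells and 470 CPM in the WT plasma cell-like cells. Among the earliest cells, HSC/MPP-like cells had 21.3 CPM in KO and 9.92 CPM in WT, a log2 ratio of 1.10 (0.66 to 1.57).

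Ly86, also called MD-1, was at 411 CPM in KO and 368 CPM in WT monocyte-like cells, a log2 ratio of 0.16 (0.11 to 0.20). It reached 247 CPM in KO and 285 CPM in WT B cell-like cells, the other cells in which its partner Cd180 is known. In KO cells it was highest in cluster 6 (475 CPM) and cluster 11 (473 CPM), in WT cells in cluster 11 (427 CPM) and cluster 6 (414 CPM), and neither pair was separated beyond its counting intervals. Mpeg1 was at 214 CPM in KO and 194 CPM in WT monocyte-like cells (0.14, 0.08 to 0.21) and at 631 CPM in KO and 448 CPM in WT in cluster 17 (0.49, 0.23 to 0.76). In neutrophil progenitor-like cells Mpeg1 was at 22.1 CPM in KO and 11.4 CPM in WT, a log2 ratio of 0.95 (0.69 to 1.21).

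**Figure D4:**
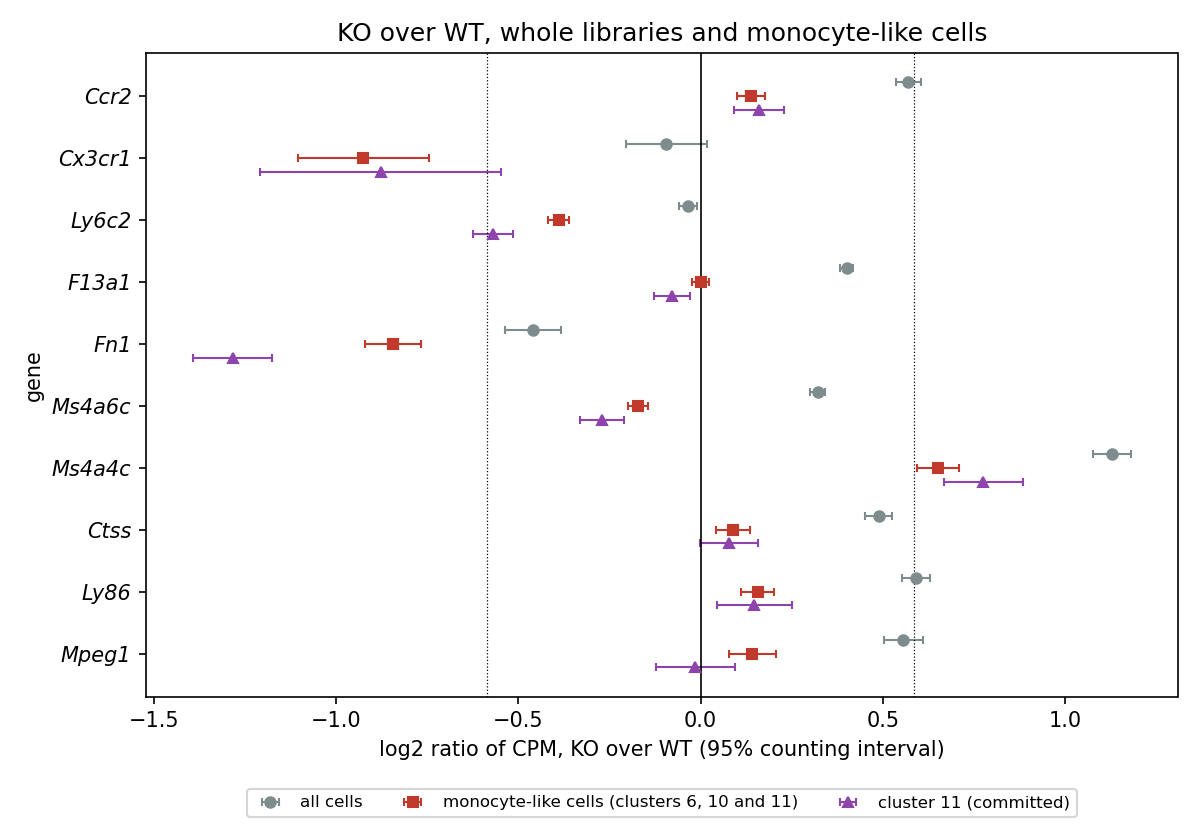
Log2 ratio of CPM, KO over WT (x axis), of each gene (rows) over all cells (grey circles), monocyte-like cells (red squares) and cluster 11 (purple triangles), with 95% counting intervals; dotted lines mark 1.5-fold. For all 10 genes the value over all cells lies to the right of the value within monocyte-like cells, and Fn1 in cluster 11 is the value farthest to the left (-1.28).

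Over all cells of the libraries, 2 of the 10 genes were at least 1.5-fold higher in KO (Ms4a4c and Ly86) and 0 were lower, while of all 8584 genes tested 2.04% were called higher and 1.25% lower. Ms4a4c was at 81.1 CPM in KO and 37.1 CPM in WT (log2 ratio 1.13), and Ly86 at 125 CPM in KO and 83.2 CPM in WT (0.59), just past the size for a call. The Ly86 value fell short of that size with doublets kept (0.57), with TMM factors (0.52), with median-of-ratios scaling (0.53), as a mean per cell (0.36) and with clusters weighted alike (0.11). The next were Ccr2 at 146 CPM in KO and 98.5 CPM in WT (0.57), Mpeg1 at 60.5 CPM in KO and 41.1 CPM in WT (0.56) and Ctss at 119 CPM in KO and 84.9 CPM in WT (0.49). F13a1 (0.40) and Ms4a6c (0.32) were also higher, Ly6c2 (-0.03) and Cx3cr1 (-0.09, interval -0.20 to 0.02) were near 0, and Fn1 was lower, at 21.4 CPM in KO and 29.4 CPM in WT (-0.46). Within monocyte-like cells the call was 1 of 10 higher (Ms4a4c) and 2 of 10 lower (Cx3cr1 and Fn1), where 1.29% of all genes were called higher and 0.707% lower.

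The difference between the values over all cells and those within monocyte-like cells went with the mix of clusters. Monocyte-like cells and cluster 4 held 32.0% of the UMIs of the KO library and 22.6% of those of the WT library. By cells the shares were closer, 24.7% in KO and 20.1% in WT. Erythroid-like cluster 13 held 3.42% of the KO UMIs and 10.7% of the WT UMIs. When the levels of each cluster were kept as in WT and only the cluster mix of KO was put in, all 10 genes came out higher, by log2 values of 0.37 (Ctss) to 0.54 (Fn1). When the mix was kept as in WT and the KO levels were put in, the log2 values were 0.68 for Ms4a4c, between 0.13 and 0.18 for Ccr2, Ctss, Ly86 and Mpeg1, 0.04 for F13a1, -0.05 for Ms4a6c, -0.38 for Ly6c2, -0.45 for Cx3cr1 and -0.97 for Fn1. Weighting every cluster alike gave -0.02 for F13a1 and -0.09 for Ms4a6c, the opposite sign to the values over all cells. The whole-library values of Ly6c2 and Cx3cr1 near 0 thus stood beside lower levels within the monocyte clusters. For Cx3cr1, cluster 17 (85 KO and 66 WT cells) held 374 of the 1255 UMIs in KO and 223 of the 1444 in WT. That cluster made up 0.620% of all KO UMIs and 0.317% of all WT UMIs.

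**Figure D5:**
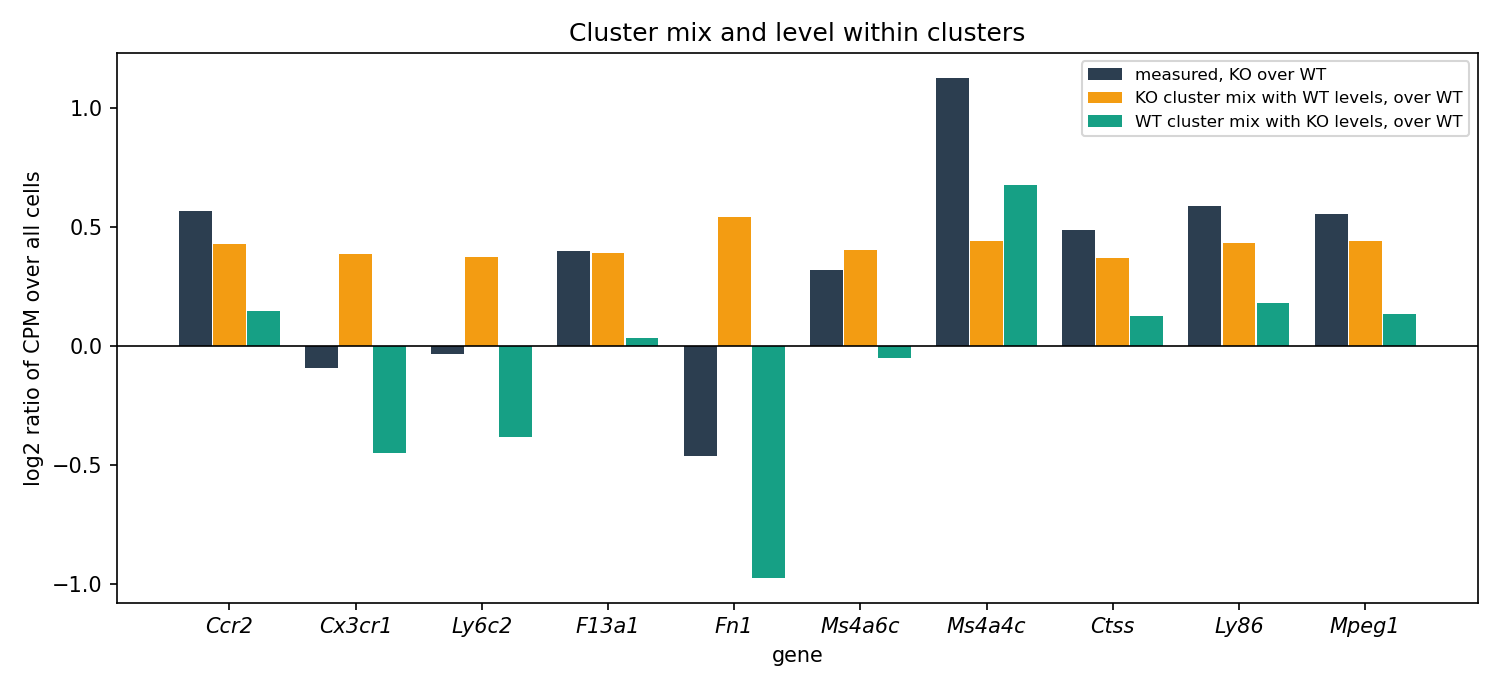
Log2 ratio over all cells (y axis) for each gene: as measured, KO over WT (dark bars), with the KO cluster mix and WT levels, over WT (orange), and with the WT cluster mix and KO levels, over WT (green). The orange bars are all between 0.37 and 0.54, while the green bars run from -0.97 (Fn1) to 0.68 (Ms4a4c).

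Over all cells that were not monocyte-like, 5 of the 10 genes were called higher in KO and 0 lower, where 2.58% of genes were called higher and 1.21% lower. They were Ms4a4c at 21.2 CPM in KO and 6.83 CPM in WT (log2 ratio 1.63), Ccr2 at 43.99 CPM in KO and 24.8 CPM in WT (0.83), Ly86 at 54.6 CPM in KO and 31.9 CPM in WT (0.78), Mpeg1 at 22.4 CPM in KO and 13.6 CPM in WT (0.72) and Ctss at 53.5 CPM in KO and 35.2 CPM in WT (0.60). These cells include cluster 4, which made up 8.66% of KO and 6.07% of WT cells. With it counted as monocyte-like, a choice made after seeing the data, 3 of the 10 were called higher. In that setting 3.27% of all genes were called higher and 1.28% lower. Within the named classes fewer members were called. HSC/MPP-like cells had 2 members higher (Ms4a6c and Ctss) where 4.41% of genes were called higher and 1.97% lower, and neutrophil progenitor-like cells had 1 higher (Mpeg1) where 1.09% were called higher and 1.38% lower. In megakaryocyte-like cells 1 was lower (Ly6c2, 5.45 CPM in KO and 15.9 CPM in WT) where 1.32% of genes were called higher and 1.29% lower. Basophil or mast cell-like cells had 1 higher (Ms4a4c, 31 UMIs in all) and 1 lower (F13a1) where 10.3% of genes were called higher and 8.54% lower, and B cell-like cells had 1 higher (F13a1, 8 UMIs in all) where 17.2% were called higher and 19.4% lower, so both counts rest on few UMIs or a wide background. Erythroid-like cells had 0 members called, with 6.69% of genes higher and 0.968% lower; all were at 6.84 CPM or less.

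Of the Ly6c2 UMIs of megakaryocyte-like cells, 5 of 46 in KO and 105 of 151 in WT were in cluster 14, whose cells had low UMI medians (5225 in KO and 3500.5 in WT). There Ly6c2 was at 7.37 CPM in KO and 154 CPM in WT. In the WT library 3 of 114 cells had 10 or more Ly6c2 UMIs and the top 6 cells held 95.2% of them; committed monocyte markers summed to 64.9 CPM in KO and 701 CPM in WT in this cluster, 7 of 8 detected in KO and 8 of 8 in WT, with Ahnak at 0 in KO. Their part in the result was not tested.

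The other genes of the same families and processes had few calls outside the interferon list. In monocyte-like cells, where these lists were counted, 1.29% of all genes tested were called higher and 0.707% lower. In the MS4A family 2 of 6 were higher and 0 lower, with Ms4a3 at 288 CPM in KO and 187 CPM in WT (log2 ratio 0.62) beside Ms4a4c, while Ms4a6b, the relative of Ms4a6c, was at 221 CPM in KO and 220 CPM in WT (0.01) and Ms4a6d at 93.7 CPM in KO and 70.9 CPM in WT (0.40). Chemokine receptors had 1 of 5 lower, Cx3cr1 itself, with Cxcr4, which retains cells in the marrow, at 60.2 CPM in KO and 65.3 CPM in WT (-0.12). Among chemokine ligands 1 of 7 was higher, the interferon-induced Cxcl10 at 40.4 CPM in KO and 2.48 CPM in WT (4.03), and Ccl9 was at 60.3 CPM in KO and 78.8 CPM in WT (-0.39). None of 19 genes of adhesion and extravasation was called; the integrin gene Itgam was at 63.8 CPM in KO and 44.8 CPM in WT (0.51) and Itgb7 at 37.3 CPM in KO and 49.2 CPM in WT (-0.40).

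Of the 15 cathepsin and cystatin genes 0 were called, with Ctsc, which activates granule proteases, at 616 CPM in KO and 496 CPM in WT (0.31) and the inhibitor Cst3 at 1835 CPM in KO and 2325 CPM in WT (-0.34). Of 7 genes of LPS and MD-family receptors 0 were called, with the Ly86 partner Cd180 at 57.6 CPM in KO and 50.4 CPM in WT (0.19). Ly6e was at 1483 CPM in KO and 1377 CPM in WT (0.11), so neither of the 2 measured Ly6 genes was called. Among 12 monocyte transcription factors 1 was lower, Nr4a1, which non-classical monocytes need, at 9.58 CPM in KO and 15.98 CPM in WT (-0.74). Of all genes tested, 0.707% were called lower. The counting interval was above 0 for 5 of the 12 (Id2, Cebpd, Cebpb, Tcf4 and Klf2) and below 0 for 5. Id2 was at 34.5 CPM in KO and 24.6 CPM in WT (0.49), Irf8 was at 411 CPM in KO and 524 CPM in WT (-0.35), Klf4 at 130 CPM in KO and 166 CPM in WT (-0.36), and Spi1, the gene of PU.1, at 351 CPM in KO and 356 CPM in WT (-0.02). The median log2 ratio over the 10 members was 0.04, against 0.01 for all genes tested.

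The members varied together across the 40 levels given by clusters and libraries, which share cells' depth and library, so the coefficients are descriptions. Pearson's r between log2 levels was highest for Ctss and Ly86 (0.947) and for Ccr2 and Ms4a4c (0.939), and lowest for Cx3cr1 and F13a1 (0.359). Outside the set, the genes most like the mean of the 10 were Pld4 (0.956), Lyz2 (0.956), the lysozyme of myeloid cells, Pik3r6 (0.951), Apba1 (0.9502), Ifi211 (0.942), Klrk1 (0.939), Xdh (0.939) and Gm13814 (0.938). Ms4a6c had Ms4a6b as its closest gene (0.984), Mpeg1 had Lrp1 (0.966) and Cybb (0.953), and Ctss had 5031439G07Rik (0.963). Pld4 and Cybb were among the monocyte markers that named clusters, and neither was kept out of the clustering. Their likeness over the same clusters is therefore not independent of how the clusters were made and named. For Fn1 the closest were Rem1 (0.951), Cd300lg (0.941) and Cd209a (0.929), for Cx3cr1 Pilra (0.932), for Ly6c2 Clec5a (0.953), for F13a1 Gm30489 (0.924), for Ccr2 Xdh (0.943), for Ms4a4c Pld4 (0.965) and for Ly86 Nrp2 (0.961).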

How the data were processed

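The authors deposited 1 matrix of UMI counts per library (10x 3′ v3.1), not normalized. Cell Ranger 3.0.1 and GRCm38 stand in the submitters' processing notes, but Cell Ranger 6.0.2 in the matrix header; no source used here names the annotation release. Cells with under 500 genes (32 KO, 51 WT) or over 10% mitochondrial UMIs (298 KO, 534 WT) were left out, and then the cells with the highest Scrublet scores as likely doublets (221 KO, 224 WT). Both libraries were clustered together (scanpy 1.11.5, Leiden resolution 1) without the 10 genes, and clusters were named from fixed marker lists. CPM is a gene's summed UMIs over a group of cells, scaled to the same total UMIs in each group. Intervals were exact Poisson for levels, exact conditional binomial for ratios and exact binomial for shares, at 95%. The ratio intervals were tried only on simulated Poisson counts, the model they assume. That trial cannot show how they hold for UMIs spread unevenly over cells, as those of Fn1 were. Cells were thinned to 5000 UMIs for shares of cells. Differences of at least 1.5-fold at 10 CPM or more were counted. Genes named are the 10 members, Phf6, the 8 genes most like the members' mean and the 3 most like each, and from each list up to 4 genes by log2 ratio and 3 by level; Ms4a6b and Ly6c1 fall outside it and were chosen after their values were seen. The members and lists were chosen with earlier results of these data known. Alternatives covered filters, doublets, cluster resolution, class naming, thinning, scaling (edgeR 4.0.16 TMM factors, median of ratios) and expression minimum.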

Additional observations from a re-analysis of the deposited data

Results flagged for a closer look

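Of the 10 genes, 7 were at least 1.5-fold higher in KO in one cluster and at least 1.5-fold lower in another, among clusters where the gene was at 10 CPM or more; with 1 library per group these differences were not tested. By the counting interval alone, 9 of the 10 were above 0 in one cluster and below 0 in another, all but Fn1. Neither count was made over all genes, so neither is shown to be a trait of the members. The highest and lowest values were 1.26 (cluster 9) and -3.03 (cluster 14) for Ccr2, 1.67 (cluster 5) and -1.3 (cluster 14) for F13a1, 0.675 (cluster 0) and -2.34 (cluster 14) for Ms4a6c, 2.01 (cluster 9) and -4.16 (cluster 14) for Ms4a4c, 1.69 (cluster 5) and -5.16 (cluster 14) for Ctss, 1 (cluster 9) and -2.9 (cluster 14) for Ly86, and 1.33 (cluster 15) and -2.08 (cluster 14) for Mpeg1. Each lowest value was in cluster 14, the low-UMI megakaryocyte-like cluster in which the 6 WT cells with most UMIs of a gene held 53.69% (F13a1) to 100% of its UMIs. In cluster 14, 15.4% of all 7623 genes tested were called lower and 13.1% higher. In the clusters of the highest values, the share of all genes called higher was 4.41% (cluster 0), 3.76% (cluster 5), 1.85% (cluster 9) and 2.77% (cluster 15). The interval of the Ms4a6c ratio was below 0 in clusters 4, 6, 10, 11, 14 and 15 and above 0 in clusters 0, 5, 7, 9, 12 and 16. Cluster 9 was led by Prg2, Epx and Prg3, genes of eosinophil granules. In it Ccr2 was at 68.3 CPM in KO and 28.5 CPM in WT, and Ctss at 71.4 CPM in KO and 26.6 CPM in WT.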

How the results depend on the processing

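Within monocyte-like cells the counts of 1 member higher and 2 lower held under the other filters, doublet handling, scalings, clusterings and class naming that recomputed them, and without the Cxcl10 and Ifit3 cells or with cluster 4 added, both chosen after seeing the data. With members counted from 50 CPM, also chosen after seeing the data, Cx3cr1 was left out and 1 was lower. Over these alternatives the log2 ratio was 0.60 to 0.77 for Ms4a4c, -1.01 to -0.61 for Cx3cr1, -0.95 to -0.79 for Fn1 and -0.45 to -0.32 for Ly6c2; for F13a1 it was -0.05 to 0.09. Other counts moved more, and the cause was not tested. In not monocyte-like cells the count of 5 higher was 3 with the stricter filter (2.9% of all genes), 2 with doublets kept (2.59%) and 2 as a mean per cell (2.06%). It was 3 with the members allowed in clustering (2.65%), 3 with cluster 4 added (3.27%) and 0 from 50 CPM. With the stricter filter, HSC/MPP-like cells had 1 member higher, neutrophil progenitor-like cells 3 (1.19% of all genes), basophil or mast cell-like cells 0 lower, the MS4A list 1 higher, and monocyte-like cells held 76.01% of the members' UMIs in KO and 75.6% in WT. With classes set by marker score per cell, HSC/MPP-like cells had 0 higher, neutrophil progenitor-like cells 7 higher (1.77% of all genes), erythroid-like cells 1 lower (1.04%), basophil or mast cell-like cells 0 higher and 0 lower with F13a1 at 0.043, B cell-like cells 1 lower (18.4%) with F13a1 at -1.13, and the shares were 62.9% in KO and 65.1% in WT. With cluster 4 added, a choice made after seeing the data, they were 85.4% in KO and 83.7% in WT. At resolution 0.5 megakaryocyte-like cells had 0 lower, with shares of 76.2% in KO and 76.1% in WT; at resolution 2 they and basophil or mast cell-like cells had 0 lower, with shares of 58.2% in KO and 60.4% in WT. With the members allowed in clustering, neutrophil progenitor-like cells had 4 higher (1.23% of all genes), megakaryocyte-like and basophil or mast cell-like cells 0 lower, and shares were 73.2% in KO and 73.6% in WT. With doublets kept, all cells had 1 higher, HSC/MPP-like cells 1, neutrophil progenitor-like cells 5 (1.43% of all genes), basophil or mast cell-like cells 4 (6.85%) with F13a1 at 0.41, B cell-like cells 5 (14.9%), megakaryocyte-like cells 2 lower (1.15%), erythroid-like cells 3 lower (1.28%), the MS4A list 1 higher, chemokine receptors 1 higher, and shares were 67.3% in KO and 66.4% in WT. TMM and median-of-ratios scaling each gave 1 higher over all cells and 2 in B cell-like cells (18.6% and 18.5% of all genes); TMM shifted erythroid-like ratios by -0.14. Weighting clusters alike gave 1 higher and 1 lower over all cells. The mean of per-cell CPM gave 1 higher and 1 lower over all cells, 2 lower in megakaryocyte-like (2.63% of all genes), 0 lower in basophil or mast cell-like, and 0 higher and 1 lower in B cell-like cells (22.6%), with 1 LPS-list gene higher and 2 transcription factors lower. At 50 CPM or more, chemokine receptors had 0 lower, ligands 0 higher, transcription factors 0 lower and the interferon list 2 higher. With 1 UMI in each library as the minimum, MS4A had 1 lower, Ly6 2 higher and 1 lower, cathepsins 1 higher, chemokine receptors 6 higher and 5 lower, ligands 2 higher and 1 lower, LPS receptors 1 higher and transcription factors 4 lower. The share of all genes called at these other minima was not computed. Over all cells the share of all genes called higher was 2.17% with doublets kept, 1.46% with TMM factors and 1.55% with median-of-ratios scaling. As a mean per cell 1.82% were called higher and 1.02% lower. In HSC/MPP-like cells 3.62% were called higher with the stricter filter and 3.44% with doublets kept. Of the 8 genes most like the members by Pearson's r, 3 were among the 8 by Spearman's rho. No paired analysis was possible because each group had 1 library.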

Other observations

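These further values concern chemokine and interferon-response genes. In cluster 11, Cxcl10, an interferon-induced chemokine gene, was at 171 CPM in KO and 4.58 CPM in WT, a log2 ratio of 5.22. These levels rest on 738 UMIs in KO and 13 in WT, and their spread over cells was not computed. The 28 KO and 2 WT cells of the finer cluster led by Cxcl10 and Ifit3 were not set aside for this value. Interferon-response genes summed to 5398 CPM in KO and 4278 CPM in WT in cluster 11 and to 1002 CPM in KO and 700.3 CPM in WT in cluster 4.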
